A study of Mus musculus with 4 samples.

Results

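The genes described here encode proteins of elastic fibres and of the microfibrils that elastic fibres are built on. They are the fibrillin genes Fbn1 and Fbn2, the elastin gene Eln, the fibulin genes Fbln2 and Fbln5, the microfibril-associated gene Mfap4, and the latent TGF-beta binding protein genes Ltbp1, Ltbp2, Ltbp3 and Ltbp4. These 10 genes, of 21763 genes with a probe, were read on 14 of the 55681 probes other than controls, each probe being assigned to a gene through the RefSeq or Ensembl transcript that the array names for it. The genes were chosen by protein family with the ratios of these same arrays already known, so their ratios are a description and carry no test. RNA came from hearts of male C57BL/6J mice after a sham operation or after transverse aortic constriction (TAC), a surgical narrowing of the aorta that puts the left ventricle under pressure overload. The 2-week mice were 10 weeks old and the 8-week mice 16 weeks old per the labels, and all groups shared the strain, with no transgene or drug named. The age at surgery in the study's methods cannot be matched to those ages, so the ages are uncertain. The screen was made to find transcripts that were more abundant after TAC, at 2 weeks for the hypertrophic response and at 8 weeks for heart failure. Each of the 4 groups was 1 array of RNA pooled from 4 to 6 mice, so no difference between groups has a replicate check and the spread between mice was not measured.

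Microfibrils are threads of fibrillin in the extracellular matrix, and in elastic tissue they serve as the scaffold on which cross-linked elastin is laid down. Fibulins and microfibril-associated proteins join elastin to that scaffold, and lysyl oxidases cross-link it. The latent TGF-beta binding proteins are built of the same kinds of domains as the fibrillins, and all of them except LTBP2 hold latent TGF-beta, the growth factor known for driving matrix production in the overloaded heart.

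The Ltbp genes lay furthest apart of the 10, and the promoters of the member with the highest TAC over sham ratio and of the one member that was lower on both TAC arrays are shown for that contrast. Both sequences are from RefSeq (GRCm38.p6), 250 bases before to 50 after the transcription start, 5′ to 3′ on the strand of the gene, with capitals marking CAGAC or its reverse complement GTCTG, the SMAD box that mediators of TGF-beta signalling can bind. The Ltbp2 promoter lies on the minus strand at chr12:84876442-84876741 and the Ltbp1 promoter, at the start of the transcript that the array probe names, on the plus strand at chr17:75005279-75005578.
Ltbp2: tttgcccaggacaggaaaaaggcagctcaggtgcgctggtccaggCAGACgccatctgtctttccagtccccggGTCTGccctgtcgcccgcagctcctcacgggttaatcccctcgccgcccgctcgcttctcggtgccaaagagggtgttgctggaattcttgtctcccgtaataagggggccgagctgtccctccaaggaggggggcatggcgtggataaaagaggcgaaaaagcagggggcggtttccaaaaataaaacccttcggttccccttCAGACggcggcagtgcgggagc
Ltbp1: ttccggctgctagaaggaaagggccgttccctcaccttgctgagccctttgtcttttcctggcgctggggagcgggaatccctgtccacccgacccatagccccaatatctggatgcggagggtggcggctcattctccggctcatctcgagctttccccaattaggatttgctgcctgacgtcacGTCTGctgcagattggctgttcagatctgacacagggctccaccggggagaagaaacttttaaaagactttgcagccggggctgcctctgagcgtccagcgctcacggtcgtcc
Counted from the start site, with negative positions before it, the Ltbp2 window held CAGAC at -205 and 28 and GTCTG at -176. The Ltbp1 window held 1 match, GTCTG at -64. A second Ltbp1 promoter, further downstream, held GTCTG at -148 and -97, so the count for that gene depended on the start site. The Ltbp3 promoter and both Fbln5 promoters also held matches. GC content was 61% in the Ltbp2 window and 58.7% in the Ltbp1 window. A SMAD box match on either strand was present in 49.6% of all 32851 promoters of the same length, so a match is common. On both strands, no match was found in the 11 promoters read for 7 of the 10 genes to the CArG box of serum response factor (held by 1.63% of all promoters), to TATAAA (13.6%) or to GGAATG, a TEAD factor site (14.7%). The promoters of Eln, Mfap4 and Fbn2 were not read. The letters are a description of these windows and not a measure of binding.

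Signals are given as relative signal, the background-subtracted probe signal divided by the 75th percentile of that array, and as log2 ratios of the same probe between 2 arrays. The 75th percentile signal was between 206.0 and 248.5 on the 4 arrays, 54.7% to 58.5% of probes were well above background by the scanner software, and no spot was saturated. All 7 cardiomyocyte marker genes checked were measured on the 4 arrays. The hypertrophy genes Myh7, Nppa, Nppb and Acta1 were higher on the TAC array at both times, with log2 ratios from 1.03 to 3.09 at 2 weeks and from 1.94 to 3.69 at 8 weeks. The 4 arrays shared a slide and a scan.

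After TAC most of the elastic fibre and microfibril genes were higher, led by Ltbp2 (6.35-fold at 2 weeks and 11.1-fold at 8 weeks) and Mfap4 (3.89-fold and 4.69-fold). Fbn1 and Fbln2 followed at 1.74-fold to 2.19-fold at both times. Eln was 1.96-fold higher at 2 weeks and 1.37-fold at 8 weeks. Ltbp1 was lower at both times, at 0.80 and 0.71 of sham, and Fbn2 was 1.27-fold of sham at 2 weeks and 1.02-fold at 8 weeks. The median log2 ratio of the 10 genes was 0.64 at 2 weeks and 0.61 at 8 weeks, against -0.01 at both times over the 14299 genes measured on all 4 arrays.

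At 2 weeks 5 of the 10 genes, namely Fbn1, Eln, Fbln2, Mfap4 and Ltbp2, were over 1.5-fold higher after TAC, a size reached by 4.12% of all genes measured. With normexp background correction 4 passed, Eln no longer among them. Of these, Mfap4 and Ltbp2 were over 2-fold higher, against 0.902% of all genes. None of the 10 was over 1.5-fold lower at 2 weeks, against 2.41% of all genes. At 8 weeks 5 of the 10, now Fbn1, Fbln2, Mfap4, Ltbp2 and Ltbp4, were over 1.5-fold higher, against 5.22%, and the first 4 of these were over 2-fold higher, against 1.73%. None was over 1.5-fold lower at 8 weeks, against 3.74%. Fbn1, Fbln2, Mfap4 and Ltbp2 passed 1.5-fold at both times, which 2.08% of all genes did. For 8 of the 10 genes both TAC arrays lay above both sham arrays, an order found in 23.9% of all genes. Ltbp1 alone had both TAC arrays below both sham arrays, as did 25.6% of all genes, and Fbn2 had overlapping values. Since the genes were chosen with these ratios known, nothing is read from the difference between their counts and those shares.

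**Figure D1:**
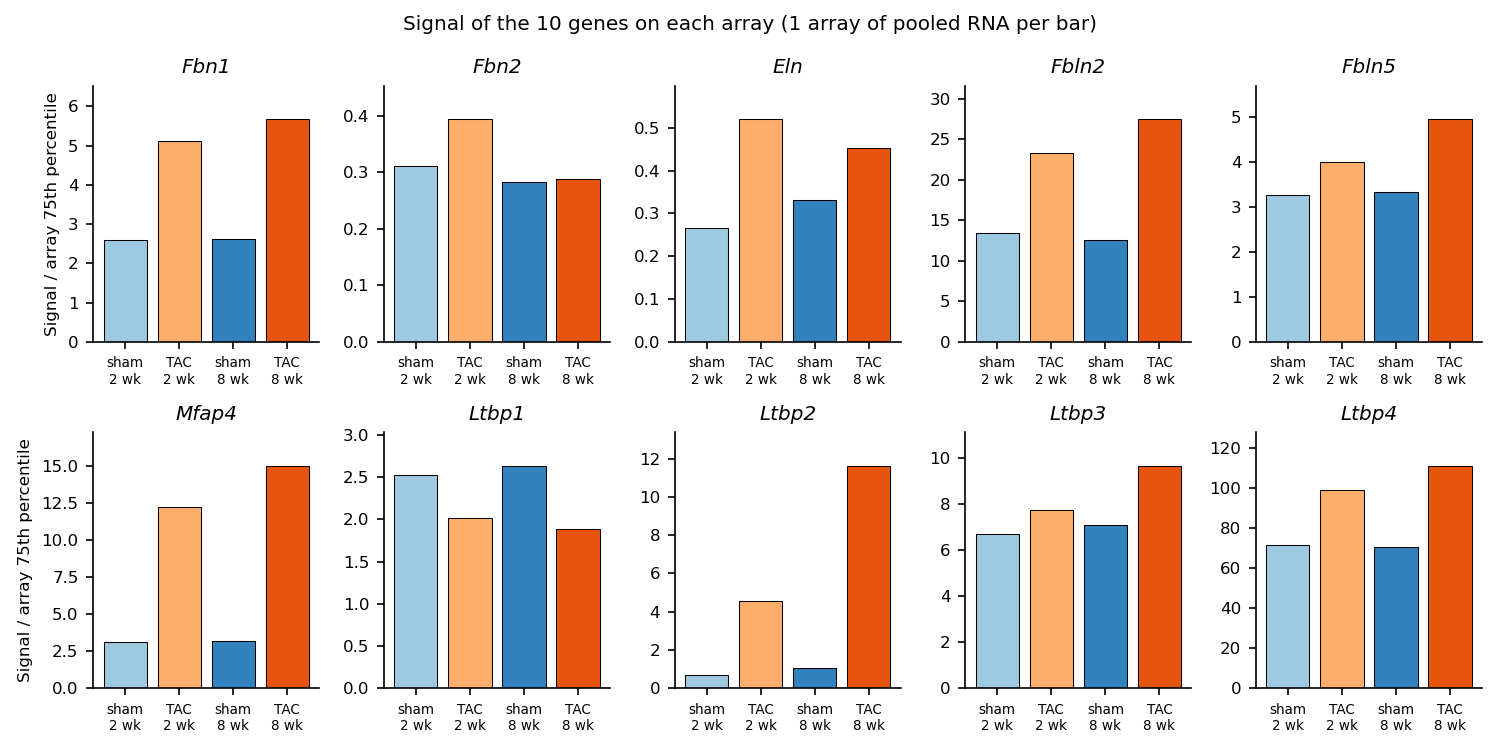
Relative signal (probe signal divided by the 75th percentile of the array) of each of the 10 genes on the 4 arrays, 1 bar per array of pooled RNA, with each panel on its own axis from 0 and no error bar because each group is 1 array. The Ltbp2 bar stands at 11.6 on the 8-week TAC array against 1.04 on the 8-week sham array, while Ltbp1 is the gene whose TAC bars are both below its sham bars.

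Among the latent TGF-beta binding proteins, Ltbp2 encodes the member that does not hold latent TGF-beta and that associates with fibrillin microfibrils. Its relative signal was 0.714 on the 2-week sham array, 4.53 on the 2-week TAC array, 1.04 on the 8-week sham array and 11.6 on the 8-week TAC array. Both TAC arrays were far above both sham arrays, the lowest TAC value exceeding the highest sham value by 2.12 on the log2 scale. The log2 ratio was 2.67 at 2 weeks and 3.48 at 8 weeks, the 6th highest of 14299 genes at each time. The sham arrays themselves differed for Ltbp2, the 8-week sham being 1.46-fold of the 2-week sham. The gene lies at chr12:84783212-84876558 on the minus strand (GRCm38).

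Ltbp1, which encodes a carrier that tethers latent TGF-beta to the matrix, ran the other way. Its relative signal was 2.52 on the 2-week sham array, 2.02 on the 2-week TAC array, 2.63 on the 8-week sham array and 1.88 on the 8-week TAC array. The sham arrays were close to each other and both stood above both TAC arrays. The log2 ratio was -0.32 at 2 weeks and -0.49 at 8 weeks, which placed Ltbp1 13098th and 13474th from the highest of 14299 genes. The gene lies at chr17:75005480-75392512 on the plus strand.

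Ltbp3, which encodes another latent TGF-beta carrier, known for its part in bone and in the aorta, had relative signals of 6.70, 7.74, 7.08 and 9.66 on the 2-week sham, 2-week TAC, 8-week sham and 8-week TAC arrays. Both TAC values were above both sham values, by 0.13 on the log2 scale at the closest. Its log2 ratio was 0.21 at 2 weeks and 0.45 at 8 weeks, and its second probe gave 0.38 and 0.40. The probes of Ltbp3 thus differed by 0.17 at 2 weeks, nearly as much as the ratio of the brighter one. Ltbp4, whose product holds latent TGF-beta and also helps place fibulin-5 and elastin on microfibrils, had relative signals of 71.5, 99.4, 70.9 and 111.3 in the same order. Its sham arrays were nearly equal and both TAC arrays were higher, with log2 ratios of 0.48 and 0.65. The second Ltbp4 probe gave 0.54 and 0.68. Ltbp3 lies at chr19:5740900-5758536 on the plus strand and Ltbp4 at chr7:27305140-27339720 on the minus strand.

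The fibrillins form the microfibril itself, and FBN1 is the protein altered in Marfan syndrome. Fbn1 (chr2:125300594-125506485, minus strand) had relative signals of 2.595 and 2.615 on the 2-week and 8-week sham arrays. On the TAC arrays it stood at 5.12 at 2 weeks and 5.67 at 8 weeks. Fbn1 was therefore separated from sham by about the same amount at both times, with log2 ratios of 0.98 and 1.12 and a gap of 0.97 between the lowest TAC and the highest sham value. Fbn2, best known for its part in microfibrils of the developing embryo, had relative signals of 0.311 on the 2-week sham, 0.394 on the 2-week TAC, 0.283 on the 8-week sham and 0.288 on the 8-week TAC array. The 8-week TAC value of Fbn2 was below its 2-week sham value, so the groups overlapped. The log2 ratio of its brighter probe was 0.34 at 2 weeks and 0.02 at 8 weeks, whereas the dimmer probe gave 0.31 and 0.34. The dimmer probe had relative signals of 0.069 to 0.118. At signals below 0.25 the SD of a single-spot log2 ratio was 0.245 at 8 weeks. The 8-week ratio of Fbn2 thus differed between the probes by an amount near spot error.

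Mfap4 encodes a microfibril-associated glycoprotein that binds elastin and collagen (chr11:61485431-61488708, plus strand). Its relative signal was 3.16 on the 2-week sham array, 12.3 on the 2-week TAC array, 3.20 on the 8-week sham array and 15.0 on the 8-week TAC array. The sham arrays differed by 0.02 on the log2 scale and the lowest TAC value was 1.94 above the highest sham value. Its log2 ratios of 1.96 and 2.23 ranked 13th and 25th from the highest of all genes.

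Eln encodes tropoelastin, the soluble precursor of elastin (chr5:134702595-134747368, minus strand). Its relative signal was 0.265 on the 2-week sham array, 0.520 on the 2-week TAC array, 0.332 on the 8-week sham array and 0.453 on the 8-week TAC array. Eln was the gene of the 10 whose ratio was lower at 8 weeks than at 2 weeks by the most, the log2 ratio being 0.97 at 2 weeks and 0.45 at 8 weeks. Sham at 8 weeks was 1.25-fold of its 2-week value (log2 ratio 0.32), while the log2 ratio of the 8-week over the 2-week TAC array was -0.20. At the signal of Eln the SD of a single-spot log2 ratio was 0.154 between the sham arrays and 0.135 between the TAC arrays. Which of the 2 held more of that gap thus cannot be told from spot error. The Eln signal was low, and after normexp background correction its log2 ratios were 0.53 and 0.25.

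The fibulins bridge elastin, microfibrils and cells. Fbln2 (chr6:91212460-91272540, plus strand), whose product binds fibrillin and fibronectin, had relative signals of 13.4 and 12.6 on the 2-week and 8-week sham arrays and 23.4 and 27.4 on the matching TAC arrays. Both TAC values were clear of both sham values, by 0.80 on the log2 scale at 2 weeks and 1.13 at 8 weeks against the sham array of the same time. Fbln5 (chr12:101746565-101819119, minus strand), whose product is needed for elastic fibre assembly, had relative signals of 3.27 and 3.34 on the sham arrays and 3.995 and 4.95 on the TAC arrays. Its log2 ratios were smaller, 0.29 and 0.57, and the lowest TAC value was 0.26 above the highest sham value. A second Fbln5 probe was well above background on none of the 4 arrays and gave no measure.

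**Figure D2:**
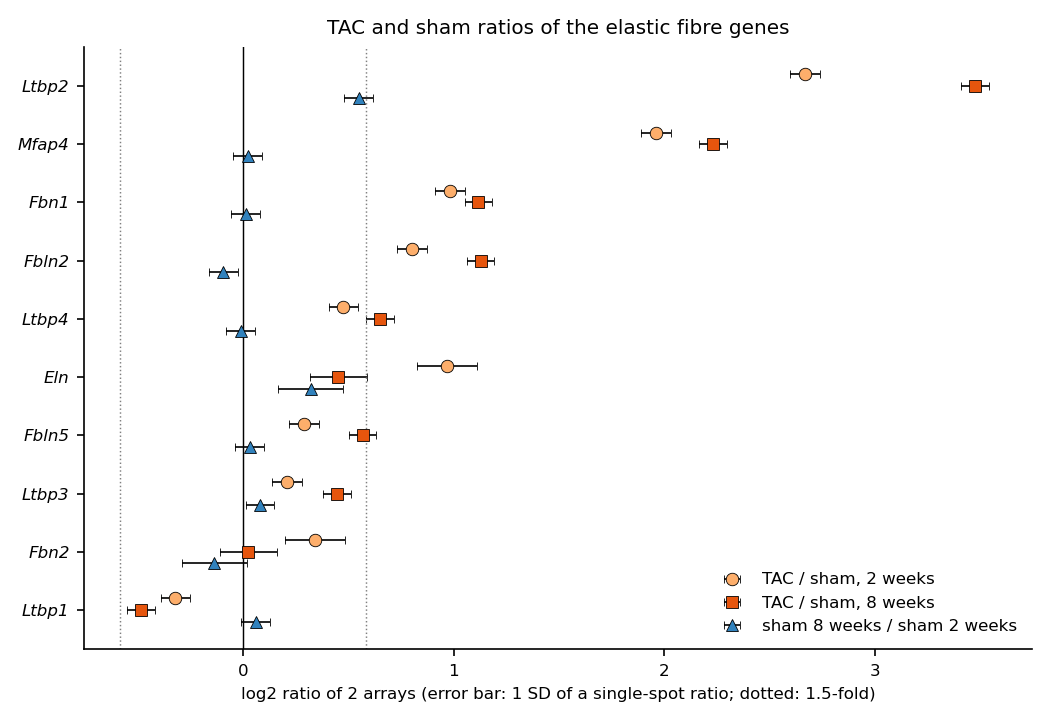
Log2 ratios of TAC over sham at 2 weeks (circles) and 8 weeks (squares) and of the 8-week over the 2-week sham array (triangles) for each gene, with bars of 1 SD of a single-spot log2 ratio, estimated from probes printed 10 times on each array, and dotted lines at 1.5-fold. The bars cover spot-to-spot error only, and the largest of the sham ratios is that of Ltbp2 (0.55).

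Error could be measured at the spot only, and not between mice or pools. Probes printed 10 times on each array gave an SD of a single-spot log2 ratio, for relative signals above 1, of 0.0709 at 2 weeks and 0.0655 at 8 weeks. For signals from 0.25 to 1, the range of Eln and Fbn2, the SD was 0.143 and 0.134. The class of a gene was set by its mean log2 signal over the 4 arrays. Ltbp2, with sham signals of 0.714 and 1.04, was thus classed above 1 through its TAC signals. Every member was read from 1 spot per probe, so the ratios of Ltbp3 at 2 weeks (0.21) and of Fbn2 (0.34 and 0.02) were those nearest to spot error. For comparison, the pair of sham arrays gave a range over genes. That pair also holds the difference in age and time and is not a replicate of any group. Between the sham pools 95% of the 8533 genes with signals above 1 lay from -0.29 to 0.30 on the log2 scale, and 95% of the 3494 genes with signals from 0.25 to 1 lay from -0.46 to 0.52. At 2 weeks 7 of the 10 TAC over sham ratios lay outside the range for their signal class, as did 14% of all genes, those of Fbn2, Fbln5 and Ltbp3 lying inside. At 8 weeks 8 of the 10 lay outside it, as did 18.2% of all genes, and those of Fbn2 and Eln were inside. Of the ratios between the sham arrays themselves, that of Ltbp2 (0.55) was outside, where 5.02% of all genes lay by construction. The Ltbp2 ratio was also outside the range for signals from 0.25 to 1. In bulk tissue, more cells that make a transcript and more transcript per cell cannot be told apart.

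**Figure D3:**
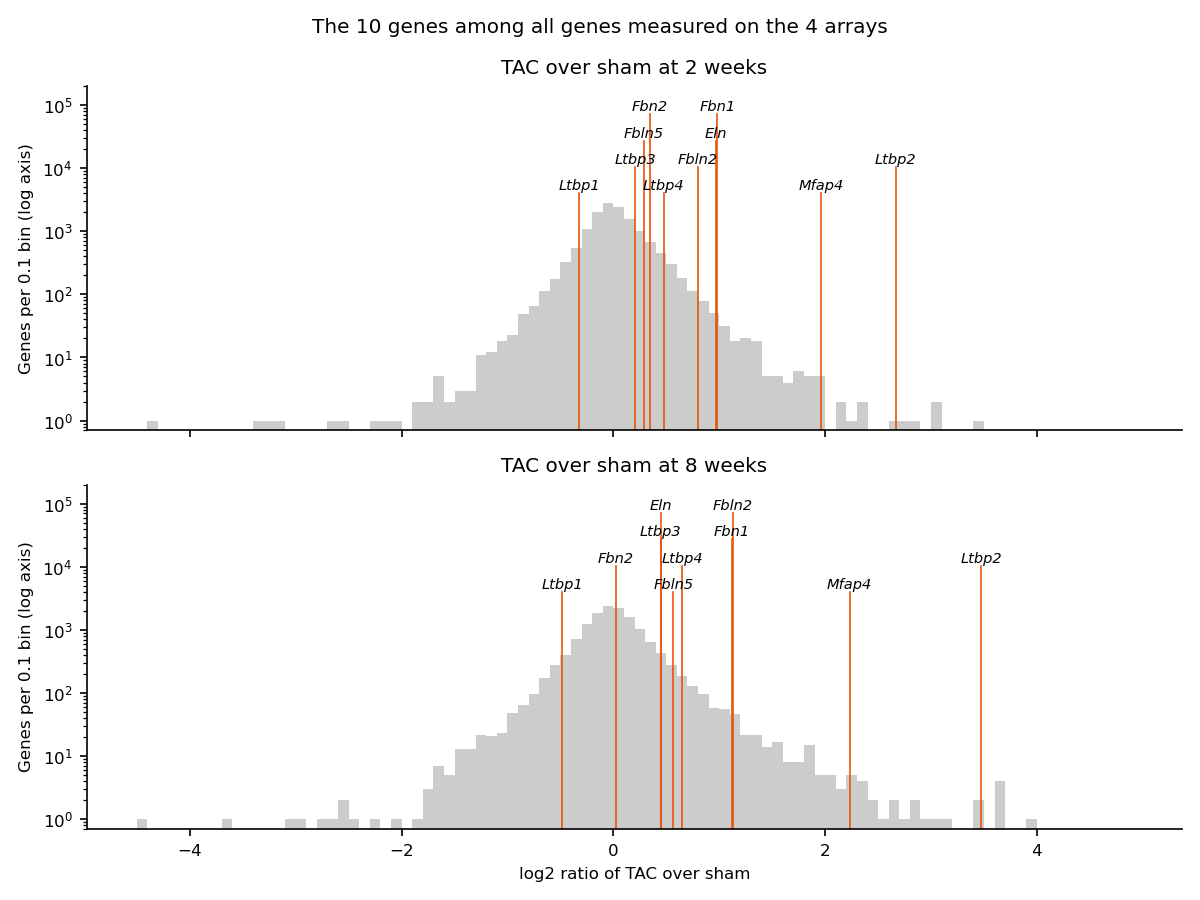
Histograms of the log2 ratio of TAC over sham for the 14299 genes measured on all 4 arrays at 2 weeks (top) and 8 weeks (bottom), in bins of 0.1 with a log count axis, and a line for each of the 10 genes (line heights only separate the names). Ltbp2 and Mfap4 lie in the right tail at both times, Fbn2 moves from 0.34 to 0.02, and Ltbp1 lies left of the centre.

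Across the 4 arrays the sham pools differed little for most of these genes. The median log2 ratio of the 8-week over the 2-week sham array was 0.03 for the 10 genes and 0.03 for all genes. None of the 10 was over 1.5-fold higher or lower in that comparison, against 1.59% and 1.17% of all genes. Between the TAC arrays Ltbp2 was 2.56-fold higher at 8 weeks than at 2 weeks (log2 ratio 1.36). The TAC arrays differed less for the others, from -0.45 for Fbn2 to 0.32 for Ltbp3. The TAC over sham log2 ratio was larger at 8 weeks than at 2 weeks by 0.81 for Ltbp2, 0.33 for Fbln2, 0.28 for Fbln5, 0.27 for Mfap4, 0.24 for Ltbp3, 0.17 for Ltbp4 and 0.13 for Fbn1. The 8-week minus 2-week difference was -0.52 for Eln and -0.32 for Fbn2, and the ratio of Ltbp1 was further below 0. These differences use the same 4 arrays as the ratios above and were not tested.

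Other genes of elastic fibres and microfibrils gave a mixed picture. Of 21 listed, 15 were measured on all 4 arrays, and their median log2 ratio was 0.02 at 2 weeks and 0.06 at 8 weeks. At 2 weeks 3 were over 1.5-fold higher and 2 over 1.5-fold lower, and at 8 weeks 3 were higher and 4 lower. Of all genes, 4.12% were over 1.5-fold higher and 2.41% lower at 2 weeks, and 5.22% and 3.74% at 8 weeks. This list and those below were chosen with earlier results of these data known, so nothing is read from their counts against such shares. Mfap5, which encodes a microfibril-associated glycoprotein that binds fibrillin, had log2 ratios of 1.32 and 1.93. Adamtsl2, whose product binds fibrillin-1 and LTBP1, had log2 ratios of 1.82 and 2.25. Both passed 1.5-fold at each time. In the other direction, Efemp1, the fibulin-3 gene, had -0.70 and -1.55, and Emilin2, an elastin-interface glycoprotein gene, had -0.61 and -0.97. The sham arrays differed by 0.68 for Efemp1, the 8-week one being higher. Fbln1 was 0.71 of sham at 2 weeks and 0.58 at 8 weeks, so the fibulin family held genes on both sides of sham. Of the genes that did not reach background on all 4 arrays, Adamtsl3 was at least 4.64-fold lower after TAC at 2 weeks, the bound using, for the TAC side, its own signal or the lowest signal still well above background there, whichever was higher. Adamtsl3 was well above background on 1 array, that of the 2-week sham pool, so the bound rests on that array.

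Genes of the enzymes that cross-link elastin and collagen had ratios above 0 after TAC where they were measured on every array. All 4 lysyl oxidase genes measured on every array were over 1.5-fold higher at 2 weeks and 3 of the 4 at 8 weeks, with medians of 0.89 and 0.93. The shares of all genes over 1.5-fold higher were 4.12% and 5.22%. Loxl4 was well above background on none of the arrays. Loxl2 had the highest log2 ratios, 1.06 and 1.18, and Lox, which had a low signal, had 0.96 and 0.50. The 8-week ratio of Lox lay inside the range of 95% of genes with signals below 0.25 between the sham arrays, -0.68 to 0.77. Of the proteases that can degrade elastin, 6 of 10 were measured on all 4 arrays. Their median was 0.63 at 2 weeks and 0.31 at 8 weeks. Of the 6, 4 passed 1.5-fold upward at the earlier time and 2 at the later. The cathepsin genes Ctss (0.65 and 0.81) and Ctsk (0.74 and 0.99) passed at both times. Mmp14 had 1.02 at 2 weeks and 0.18 at 8 weeks, its sham signal being 0.82 higher on the log2 scale at 8 weeks. Mmp9 and Mmp12 were well above background on none of the arrays.

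Because most Ltbp products carry latent TGF-beta, the growth factor genes and their known responses were read beside them. Of 13 ligands, activators and receptors, 12 were measured, with a median log2 ratio of 0.25 at 2 weeks and 0.28 at 8 weeks. At 2 weeks 3 of these were over 1.5-fold higher and 1 lower, and at 8 weeks 4 were higher and none lower. Of all genes, 4.12% were higher and 2.41% lower by that size at 2 weeks, and 5.22% and 3.74% at 8 weeks. The log2 ratios of Tgfb2 were 0.63 and 1.57 and Tgfb3 had 0.50 and 0.79, whereas Tgfb1 had 0.16 and 0.07. Thbs1, whose product can activate latent TGF-beta, had 1.98 and 2.01, and its 8-week sham signal was 1.14 above that at 2 weeks. All 10 genes listed as TGF-beta responses were measured, with medians of 0.61 and 0.79. Upward ratios past 1.5-fold numbered 5 at the earlier time and 7 at the later, and none was over 1.5-fold lower. Postn, the periostin gene, had 2.30 and 2.92, and Ccn2, the connective tissue growth factor gene, had 0.84 and 2.15.

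**Figure D4:**
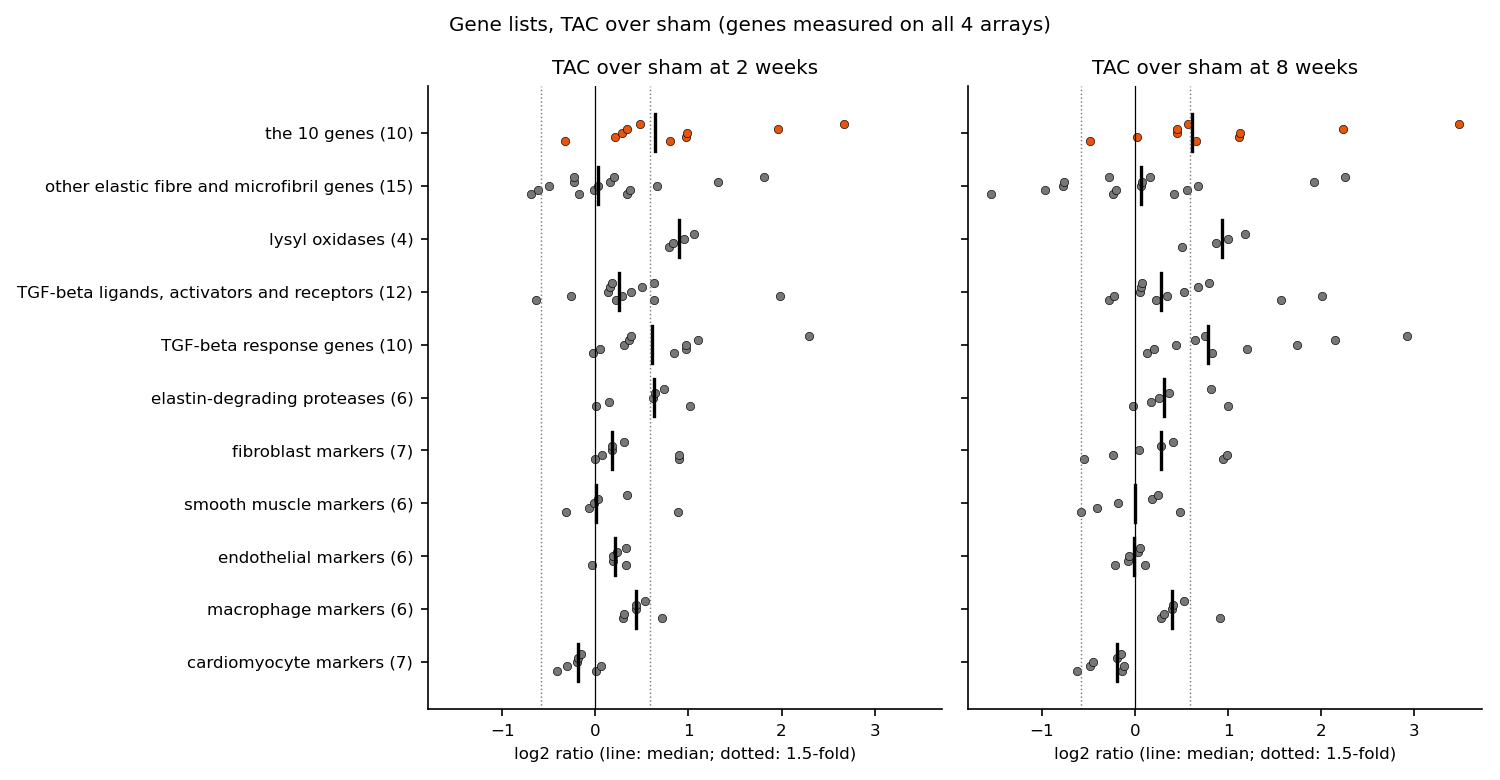
Log2 ratios of TAC over sham at 2 weeks (left) and 8 weeks (right) for the 10 genes (orange) and for each gene list (grey), 1 point per gene measured on all 4 arrays with the number in brackets, a bar at the median and dotted lines at 1.5-fold. The lysyl oxidases have medians of 0.89 and 0.93, and the cardiomyocyte markers of -0.19 at both times.

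Markers of the main cell types of the heart were read as well. The 7 fibroblast markers, from the cells that make most cardiac matrix, had median ratios (log2) of 0.18 and 0.28 at the earlier and later time. Their summed relative signal was 189.9 and 216.4 on the sham arrays and 246.0 and 294.6 on the TAC arrays. The matrix genes Lum and Col1a2 were the 2 that passed 1.5-fold at both times, as did 2.08% of all genes. The receptor gene Pdgfra had log2 ratios of 0.31 and 0.40 and the transcription factor gene Tcf21 0.07 and -0.55. All 6 macrophage markers had both TAC arrays above both sham arrays, an order found in 23.9% of all genes, with medians of 0.44 and 0.40. Their summed signals were 34.5 and 35.6 on the sham arrays against 43.6 and 45.4 on the TAC arrays. Csf1r made up most of those sums, with 26.9 on the 2-week sham array. The 6 smooth muscle markers had medians of 0.01 and 0.00 and summed signals of 120.2, 112.5, 130.2 and 103.0 on the 2-week sham, 2-week TAC, 8-week sham and 8-week TAC arrays. Smtn was the largest part of those sums, with 62.8, 50.4, 69.6 and 46.6 in the same order. The markers were split, 3 of the 6 being above 0 at each time. Their log2 ratios ran from -0.32 (Smtn) to 0.89 (Cnn1) at 2 weeks and from -0.58 (Smtn) to 0.48 (Cnn1) at 8 weeks. The 6 endothelial markers had medians of 0.21 and -0.01, and the 7 cardiomyocyte markers of -0.19 at both times. Of 5 mesothelial markers, Upk3b, Lrrn4 and Upk1b were well above background on none of the arrays, while Msln and Wt1 were measured on all 4. The log2 ratio of Msln was 1.13 at 2 weeks and -0.56 at 8 weeks, and that of Wt1 was 0.40 and 0.41, its 8-week sham signal being 1.49-fold of the 2-week one. Of 4 atrial markers, Myl4 was measured on all arrays, with log2 ratios of -0.01 and -0.52. For Myl7, well above background on 2 arrays, the bound was at least 3.64-fold lower on the 8-week TAC array. Sln was at least 2.55-fold lower after TAC at 8 weeks. At 2 weeks the bounds of Myl7 (1.30-fold higher) and Bmp10 (1.07-fold higher, well above background on 1 array) were near spot error. At signals below 0.25, the range of both genes, the SD of a single-spot log2 ratio was 0.265 at that time. The 2 erythroid markers measured, Hba-a1 and Alas2, stood at -0.28 and -0.27 (log2) at the earlier time and 0.08 and 0.13 at the later. The part of any of these cell types in the ratios of the elastic fibre genes was not tested.

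Among the genes outside the lists above whose pattern over the 4 arrays was most like that of Ltbp2 were Dio2, Egr2, Cilp and Aqp8. Likeness was the root mean square difference over the 3 log2 ratios to the 2-week sham array, given here with the TAC over sham folds at 2 and 8 weeks. Dio2, the gene of a deiodinase that activates thyroid hormone, was at 0.42 (5.27-fold and 12.5-fold). Egr2 followed at 0.51 (8.40-fold and 6.03-fold), Cilp at 0.61 (10.9-fold and 12.7-fold) and Aqp8 at 0.80 (3.43-fold and 7.24-fold). The relative signals on the 2-week and 8-week sham arrays were low for Dio2 (0.089 on both), Egr2 (0.094 and 0.149) and Cilp (0.174 and 0.336). Their folds therefore rest on dim sham values. With 4 arrays this order rests on 1 value per gene and group and is a description.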

How the data were processed

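Total RNA of 4 to 6 mice per group was pooled and hybridised, labelled with Cy3, to 1-colour Agilent mouse 8x60K arrays (design 028005). The authors deposited scanner output of Agilent Feature Extraction (10.7.3.1 in the file headers, 9.1 in the submitters' processing notes) holding probe intensity, already background-subtracted by the software, and other columns of spot flags per the file headers. The authors named GeneSpring, with the normalization not given in the sources used here. Here, the log2 of the deposited processed intensity was reduced by the 75th percentile of each array. Outlier spots (141 to 167 per array, none of the 14 member probes) were dropped and repeated spots averaged. Of 32342 probes named by a transcript, 29502 matched 1 gene, and the brightest probe stood for a gene. Counts and shares past 1.5-fold or 2-fold were taken among genes well above background on all 4 arrays. Genes reported were all 10 members, gene lists and the 5 genes most like Ltbp2, of which 1 is not reported here. The members and lists were chosen with earlier results of these data known. Locations are those of the GRCm38 annotation, none converted from the build of the array design. Python 3.11.15 and limma 3.58.1 (normexp) were used. With 1 array per group the precision is limited by the number of arrays.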

Additional observations from a re-analysis of the deposited data

How the results depend on the processing

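No member ratio past 1.5-fold reversed its sign under the 9 alternatives that recomputed ratios. With the mean over all probes of a gene, the median of the 10 genes at 2 weeks was 0.88 in place of 0.64, because that mean includes the Fbln5 probe not above background. Without normalization between arrays, the 8-week median was 0.78 in place of 0.61 and 8 genes in place of 5 were over 1.5-fold higher, since the 8-week TAC array was the brightest. With a 3-fold threshold, 2 genes passed at 2 weeks in place of the 5 over 1.5-fold. At 8 weeks 2 passed in place of the 5 over 1.5-fold and the 4 over 2-fold. The shares of all genes were not recomputed under these alternatives, so nothing is read from the counts about these genes. Across the alternatives the log2 ratio of Ltbp2 was 2.30 to 2.69 at 2 weeks and 3.18 to 3.64 at 8 weeks, that of Mfap4 1.92 to 1.98 and 2.18 to 2.40, that of Eln 0.53 to 0.99 and 0.25 to 0.62, and that of Ltbp1 -0.36 to -0.28 and -0.51 to -0.27. That of Fbn2 at 8 weeks was -0.07 to 0.34. The planned naming of probes by a gene name column was not run, since the files used here hold the transcript name. No paired analysis was possible because each group was 1 array with no replicate number, and for the same reason no array could be left out. Elsewhere counts moved by 1: Eln fell below 1.5-fold at 2 weeks with normexp, Fbn1 passed 2-fold at 2 weeks with quantile normalization (1.004) and the deposited value table (1.01), and Fbln5 passed 1.5-fold at 8 weeks with the array median (0.65) and normexp (0.61), and at 2 weeks with the mean over all probes (0.95). Low signal limits Eln and Fbn2 most.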
